A study of Mus musculus with 6 samples.

Results

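The genes described here encode the transcription factor NRF2 and 9 proteins of the glutathione and thioredoxin systems. They were chosen by symbol (*Nfe2l2*, *Slc7a11*, *Gclc*, *Gclm*, *Mgst1*, *Txn1*, *Txnrd1*, *Srxn1*, *Prdx1* and *Prdx6*), with earlier results of these data known. All 10 were among the 38739 genes of the table. The RNA came from neutrophils of the peritoneal cavity of cGAS knockout mice of the strain labelled C57B/L6. These mice lack cGAS, the enzyme that senses DNA in the cytosol, and untreated and LPS samples alike carry the deletion, so no value below speaks for wild-type cells. The neutrophils were recruited with thioglycolate, an irritant, harvested by lavage, and kept for 2 h in medium alone (untreated, 3 samples) or with lipopolysaccharide (LPS, the endotoxin of Gram-negative bacteria, 3 samples). The sample labels give an LPS dose of 500 ng/mL, whereas the methods of the study give a lower dose for the RNA sequencing. The methods of the study describe its mice as males aged 8 weeks. Whether samples came from separate mice is not given in the sources used here, so the p-values measure the spread between these samples, which may be technical.

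NRF2, encoded by *Nfe2l2*, is held at a low level in resting cells by KEAP1, which directs it to degradation. Oxidants and electrophiles modify KEAP1, and NRF2 then pairs with small MAF proteins on antioxidant response elements near genes of glutathione and thioredoxin metabolism. Glutathione is made from cysteine, which cells import as cystine, whereas thioredoxin passes electrons from NADPH to the peroxiredoxins that destroy hydrogen peroxide. Neutrophils produce large amounts of oxidants with the NADPH oxidase, and both systems protect the cell that makes them.

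The stretches that match the core of the antioxidant response element in the promoters of the 10 genes are shown first, because this element is what links the genes in textbooks. The letters TGACNNNGC were searched on both strands in windows of 300 bases, from 250 bases before to 50 bases after a RefSeq transcription start. Windows were at hand for 8 of the genes (11 windows, since *Mgst1* and *Txnrd1* have several starts) and not for *Gclc* and *Prdx6*. The element was found in 6 of these 8 genes and in 6 of the 11 windows, whereas 12.4% of all 32851 windows held it. The RefSeq windows are annotated on GRCm38.p6, and each was found once in its chromosome of GRCm39, from which the positions below were read. Sequences run 5′ to 3′ on the strand of the gene, and capitals mark the match, which reads GCNNNGTCA where the element lies on the opposite strand.
Nfe2l2, chr2:75535229-75535257, minus strand: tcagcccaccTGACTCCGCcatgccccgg
Gclm, chr3:122039062-122039090, plus strand: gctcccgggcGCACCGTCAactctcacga
Mgst1, chr6:138117459-138117487, plus strand: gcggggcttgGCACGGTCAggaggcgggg
Txnrd1, chr10:82694938-82694966, plus strand: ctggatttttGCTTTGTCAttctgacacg
Srxn1, chr2:151947462-151947490, plus strand: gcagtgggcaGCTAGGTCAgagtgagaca
Prdx1, chr4:116542653-116542681, plus strand: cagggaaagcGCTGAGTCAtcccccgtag
The first capital letter lies at position -240 from the transcription start of its window in *Nfe2l2*, -134 in *Gclm*, -56 in *Mgst1*, -92 in *Txnrd1* and -133 in *Prdx1*. In *Srxn1* it lies at 29, inside the first exon. *Mgst1* has 2 windows and *Txnrd1* has 3, and not every window of these genes held the match. The matches of *Mgst1*, *Txnrd1* and *Prdx1* lie inside the gene spans given below, not before them. The match in *Prdx1* overlaps a match to the AP-1 element TGANTCA, the site of FOS and JUN proteins.

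The remaining promoters differed in what they held. *Slc7a11* had no match to the antioxidant response element in its window but 2 matches to TGATGNAA, the core of the amino acid response element that ATF4 binds, which 3.97% of all windows held.
Slc7a11, chr3:50398111-50398138, minus strand: ctcatgtggcTGATGCAAacctggagaa
Slc7a11, chr3:50398092-50398119, minus strand: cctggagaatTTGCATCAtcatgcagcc
The capitals mark the matches, at -66 and, on the opposite strand, at -47. The AP-1 element was found in *Srxn1* (at -102 and -45) and *Prdx1* (at -237 and -131), against 7.81% of all windows. Among the AP-1 matches, that of *Srxn1* at -45 is followed by GC and is shown for comparison with the element above.
Srxn1, chr2:151947389-151947415, plus strand: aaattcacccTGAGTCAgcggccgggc
A loose NF-κB pattern, with middle letters that could be any base, was found in *Txn1* and *Txnrd1*, against 5.56% of all windows. Whether these matches meet a stricter form of the NF-κB motif was not tested. The cyclic AMP response element TGACGTCA was found in 0 of the 11 windows, against 1.79% of all. These are matches of letters, and no binding was measured in these samples.

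Values are scaled TPM, the share of each transcript in its library as scaled by the authors, and log2 fold changes were taken after adding 1 to each value, so that those of genes with low values come out too small. The number of reads is unknown, so the spread between 3 samples is the only measure of precision, and levels are not compared between genes because it is not stated how the transcripts of a gene were combined. Correlations of log2 values were 0.807 to 0.835 among untreated samples and 0.927 to 0.962 among LPS samples. Between untreated and LPS samples they were 0.774 to 0.801, not far below those among untreated samples. Protein-coding genes took 21.6 to 29.0% of the summed value in untreated samples and 50.6 to 60.0% in LPS samples, and most of the remainder fell on pseudogenes. The deleted gene, *Cgas*, was listed at 0.180 to 0.307 in untreated and at 0.0286 to 0.184 in LPS samples. Of 12 neutrophil markers, 10 were in the table, with sums of 9377 to 26772 in untreated and 15945 to 53831 in LPS samples. *S100a8* and *S100a9*, both with overlapping groups, made up most of these sums. In 0 of these 10 did each LPS sample lie above each untreated one, and in *Csf3r*, *Cxcr2* and *Ltf* each lay below. Over all genes tested, 13.1% lay above and 9.75% below in this way. *Cxcr2*, a chemokine receptor gene, fell from 86.5 ± 42.0 to 13.1 ± 9.10 (SD, n = 3) and was called lower by the limits given below. The neutrophil marker *Ly6g* was not analysed here. Monocyte or macrophage markers (9 of 13) summed to 169.7 to 198 in untreated and 268 to 417 in LPS samples, with separate groups in 4 of the 9. *Cd68* alone, at 166 ± 11.5 untreated and 305 ± 75.8 after LPS (SD, n = 3), made up most of these sums. *Cd68* and *C1qb* lay above in LPS samples, whereas *Ccr2* (5.60 ± 3.72 to 1.22 ± 0.571; SD, n = 3) and *Mrc1* (1.92 ± 0.684 to 0.868 ± 0.223; SD, n = 3) lay below. Of these, *C1qb*, a complement gene of macrophages, was called, going from 2.77 ± 2.02 to 19.8 ± 3.63 (SD, n = 3). The part of other cells in the changes below was not tested, and in bulk RNA a change in cell make-up cannot be told apart from a change within cells.

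To learn how the NRF2, glutathione and thioredoxin genes of cGAS−/− neutrophils responded to LPS, the 3 LPS samples were compared with the 3 untreated ones. All 10 genes had a higher mean after LPS, with a median log2 fold change of 2.02, against 0.01 over all 23049 genes tested and 0.37 over the 6004 protein-coding genes with a mean of at least 1. By the limits of the study (unadjusted p under 0.01, log2 fold change over 2) *Nfe2l2*, *Slc7a11*, *Mgst1*, *Txn1* and *Txnrd1* rose. These are 5 of 10, whereas 1.69% of all genes tested and 4.91% of those 6004 protein-coding genes were called higher. Because the 10 genes were chosen with earlier results of these data known, the shares set beside them are a background and not a test. With limma, 0 of the 10 were called lower (1.31% of all genes; 0.946% at an adjusted p under 0.05; 9.75% with each LPS sample below each untreated one), and 0 were lower at an unadjusted p under 0.05, a limit that 6.66% of all genes passed in that direction. At the same limit 8 of the 10 were higher, against 10.3% of all genes and 20.5% of the 6004. *Slc7a11*, *Mgst1* and *Txnrd1* also had a Benjamini-Hochberg adjusted p under 0.05 over all genes, a limit passed in the higher direction by 0.894% of all genes and 2.5% of the 6004. In 8 of the 10 genes each LPS sample lay above each untreated sample, which held for 13.1% of all genes tested and 24.5% of the 6004 protein-coding genes. *Gclc* and *Prdx1* were the exceptions.

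**Figure D1:**
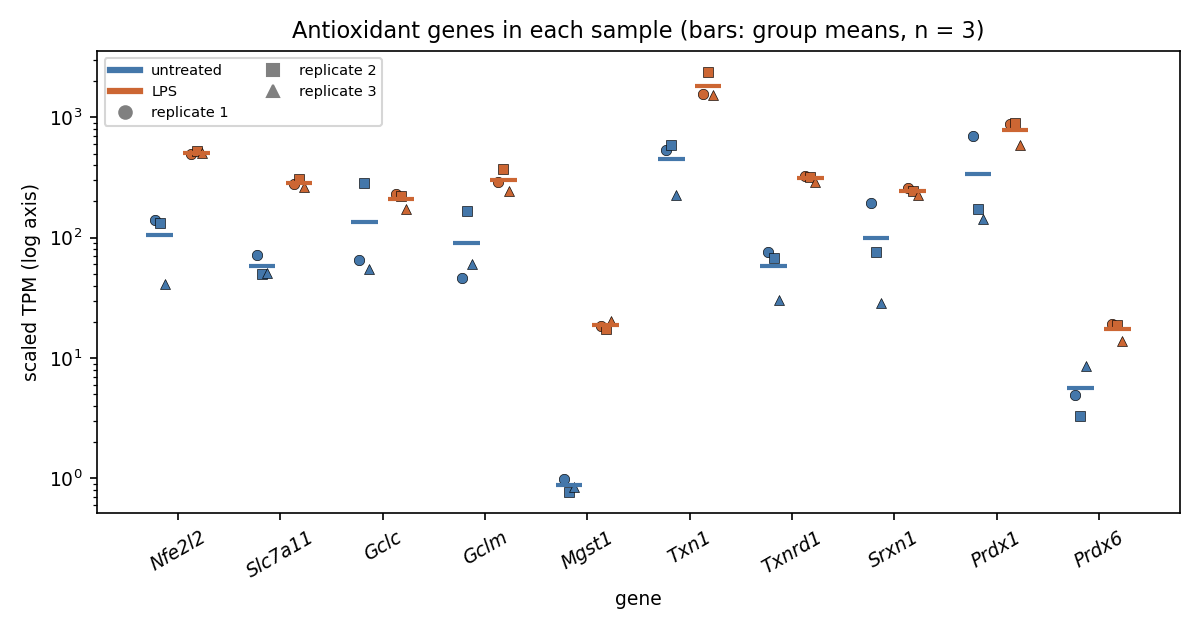
Scaled TPM (log axis) of the 10 genes in each of the 3 untreated and 3 LPS samples, where point shape gives the replicate and bars are group means. The LPS samples lie close together in each gene, whereas the untreated samples spread widely in *Srxn1*, *Prdx1* and *Gclc*, and in *Gclc* and *Prdx1* one untreated sample reaches the LPS samples.

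*Nfe2l2* (ENSMUSG00000015839, GRCm39 chromosome 2, 75504739 to 75534985, minus strand), the gene of NRF2 itself, was at 141, 131 and 41.0 scaled TPM in untreated samples 1 to 3 and at 494, 524 and 505 in LPS samples 1 to 3. The groups were far apart, and the third untreated sample was the low one. The level rose 4.85-fold, from 105 ± 55.3 to 508 ± 15.6 (SD, n = 3), a log2 fold change of 2.46 ± 0.52 (SE; limma adjusted p = 0.079). Without the third untreated sample the log2 fold change was 1.89, under the limit, and without any one of the LPS samples the unadjusted p was between 0.015 and 0.018. Repeats in *Nfe2l2* transcripts of up to 279 bases are near-identical (95% or more) to stretches of other genes. Of these, 56 had values, 39 of them on the same strand, and *Fnip1*, *Ccdc12* and *Trpm2* had the largest means. With all of these added, the log2 fold change was 1.07 and no longer called.

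The glutathione arm starts with *Slc7a11*, which encodes the cystine transporter xCT (ENSMUSG00000027737, chromosome 3, 49846975 to 50398070, minus strand). Its level was 72.2, 50.1 and 51.3 scaled TPM without LPS and 278, 309 and 266 after LPS. The gap between the groups was far wider than the spread within either, a rise of 4.91-fold with a log2 fold change of 2.29 ± 0.28 (SE; limma adjusted p = 0.024). *Slc7a11* was called without each of the 6 samples in turn. Its transcripts share stretches of up to 375 bases with other genes. Of these, 4 were in the table, all on the opposite strand (the largest being *Gm14150*, *Gm6682* and *Gm5620*). Adding the values of these 4 turned the direction (log2 fold change of -0.57).

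The next step, the joining of glutamate and cysteine, is the work of glutamate-cysteine ligase, with GCLC as its catalytic and GCLM as its modifier subunit. *Gclm* (ENSMUSG00000028124, chromosome 3, 122039126 to 122065061, plus strand) was at 45.9, 166 and 59.8 scaled TPM untreated and at 293, 373 and 243 after LPS. The groups did not overlap, although the second untreated sample was raised, and the log2 fold change of 1.94 ± 0.53 (SE; limma adjusted p = 0.13) stayed under the limit. Without that sample it was 2.48 and was called (adjusted p = 0.041). *Gclc* (ENSMUSG00000032350, chromosome 9, 77661797 to 77701770, plus strand) was at 65.8, 287 and 54.5 untreated and at 232, 221 and 173 after LPS. Here the second untreated sample was the highest of all 6, and the log2 fold change was 1.03 (95% interval -0.59 to 2.64, adjusted p = 0.50 with limma). Without the second untreated sample the log2 fold change of *Gclc* was 1.77 (adjusted p = 0.056), below the fold limit. Thus in both subunits the same untreated sample stood above the other two.

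*Gclm* carries a further uncertainty. Stretches of its transcripts of up to 853 bases are near-identical to other genes, of which 13 had values, 10 of them on the same strand. Among the 13 were *Ppia*, the gene of cyclophilin A, and the pseudogenes *Gm10123* and *Gm6061*. *Gm10123* was listed at 1479, 295 and 847 in untreated and 344, 159 and 343 in LPS samples. With all such genes added to *Gclm* the log2 fold change turned to -0.51, and with only those that match at least 50% of a coding transcript it was 0.83. The long non-coding gene *Gm17494* overlaps *Gclm* on the other strand, and rose from 2.54 ± 0.411 to 14.5 ± 1.33 (SD, n = 3), a log2 fold change of 2.13 (adjusted p = 0.028 with limma). The kit was strand-specific, but it is not stated whether strand was used in quantification.

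*Mgst1*, which encodes microsomal glutathione S-transferase 1, a membrane enzyme that conjugates glutathione to electrophiles and reduces lipid peroxides, changed most (ENSMUSG00000008540, chromosome 6, 138117314 to 138133774, plus strand). It was at 0.994, 0.770 and 0.855 scaled TPM without LPS and at 18.6, 17.5 and 20.4 after LPS. The level rose 21.6-fold, from 0.873 ± 0.113 to 18.8 ± 1.48 (SD, n = 3). Its change of 3.40 on the log2 scale (95% interval 2.75 to 4.06, adjusted p = 0.0090 with limma) ranked 75th of the 23049 genes tested. It was called under each of the 17 alternative settings, with a log2 fold change of 2.02 to 4.28, and shares no stretch with another gene.

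In the thioredoxin arm, *Txn1* encodes cytosolic thioredoxin and *Txnrd1* the selenium-containing reductase that recharges it. *Txnrd1* (ENSMUSG00000020250, chromosome 10, 82669785 to 82733546, plus strand) was at 75.9, 68.1 and 30.3 scaled TPM untreated and at 326, 321 and 292 after LPS. It rose 5.39-fold, a log2 fold change of 2.51 ± 0.41 (SE; limma adjusted p = 0.048), and was called without each of the 6 samples and under all other settings tried. *Txn1* (ENSMUSG00000028367, chromosome 4, 57934208 to 57956424, minus strand) was at 534, 587 and 225 untreated and at 1559, 2390.3 and 1540.4 after LPS. The groups were separate, and the 4.08-fold rise gave a log2 fold change of 2.11 ± 0.46 (SE; limma adjusted p = 0.083). This call was near the limit: it was lost without the first or the third untreated sample or any one of the LPS samples, with log2 fold changes of 1.67 to 2.30. The one *Txn1* copy in the table, the pseudogene *Txn-ps1*, was at 0 in 5 samples and at 0.603 in the third LPS sample.

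Among the peroxiredoxins and their repair enzyme, *Srxn1* and *Prdx1* varied widely between untreated samples, as *Gclc* did. *Srxn1* (ENSMUSG00000032802, chromosome 2, 151947436 to 151957687, plus strand) encodes sulfiredoxin, which restores peroxiredoxins inactivated by overoxidation. It was at 194, 76.2 and 28.8 scaled TPM untreated and at 259, 243 and 226 after LPS. The highest untreated sample was 6.72 times the lowest, whereas the LPS samples differed by 1.15 times, and the log2 fold change of 1.67 (95% interval 0.01 to 3.32, adjusted p = 0.29 with limma) did not hold up after adjustment. *Prdx1* (ENSMUSG00000028691, chromosome 4, 116532123 to 116558398, plus strand), an abundant cytosolic peroxiredoxin, was at 699.5, 172 and 144 untreated and at 882, 897 and 588 after LPS. Its first untreated sample lay above the third LPS sample, and the log2 fold change was 1.58 (95% interval -0.01 to 3.17, adjusted p = 0.30 with limma). Without the first untreated sample both genes were called, with log2 fold changes of 2.34 for *Srxn1* and 2.30 for *Prdx1*.

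*Prdx6* (ENSMUSG00000026701, chromosome 1, 161051417 to 161079098, minus strand) encodes a peroxiredoxin that relies on glutathione and also acts on phospholipids. It was at 4.96, 3.27 and 8.61 scaled TPM untreated and at 19.3, 19.0 and 14.0 after LPS. The groups were separate, but the log2 fold change of 1.54 ± 0.39 (SE; limma adjusted p = 0.11) was under the limit. Its transcripts hold repeats of up to 235 bases shared with other genes. Of these, 156 had values, 47 of them on the same strand. *Gapdh* and *D8Ertd738e*, both on the opposite strand, and *Cmtm6* had the largest means. With the whole values of all 156 added, far larger than those of *Prdx6*, the log2 fold change was -0.29. For *Prdx1*, the one such gene with values was *Gm21399*, at most 1.68 in any sample.

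**Figure D2:**
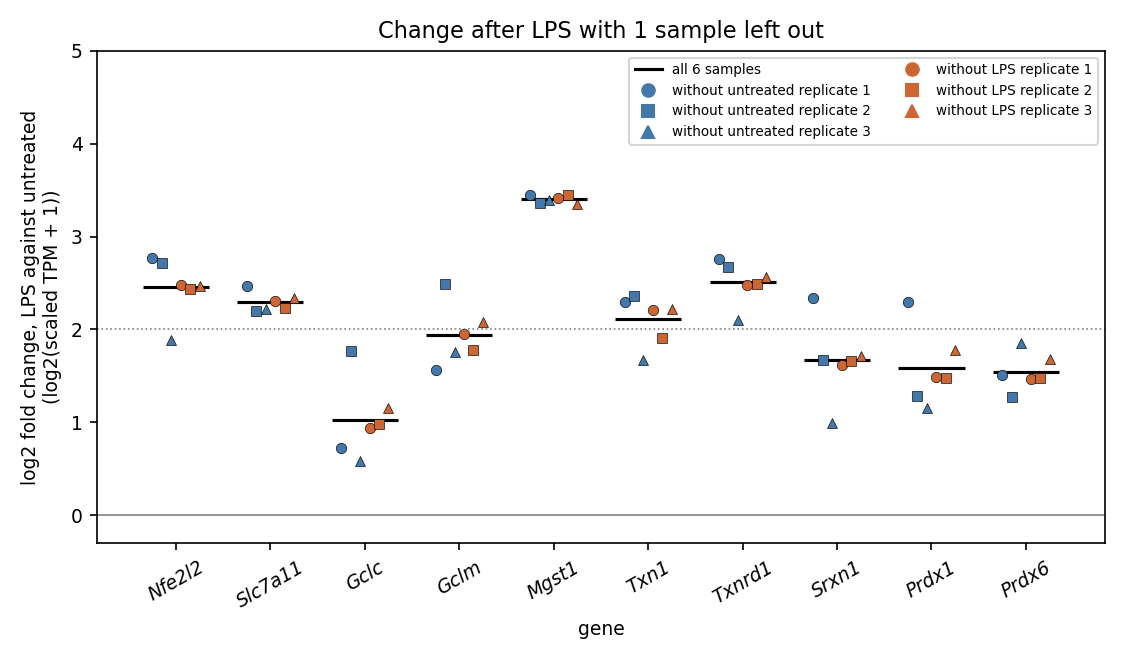
Log2 fold change (LPS against untreated, log2(scaled TPM + 1)) of each gene with all 6 samples (black line) and with 1 sample left out (points), with the limit of 2 as a dotted line. *Mgst1*, *Txnrd1* and *Slc7a11* stayed above 2, while *Gclc*, *Prdx1* and *Srxn1* moved most, each when an untreated sample was left out.

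The untreated samples were not high or low together. Among the 3 untreated samples the first was the highest for 6 of the 10 genes, the second for 3 and the third for 1, and the third was the lowest for 6. Among the LPS samples the third was the lowest for 8 genes, but the highest LPS value was at most 1.55 times the lowest in any of the 10. This ratio ran from 1.29 to 6.72 in the untreated samples.

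How large the changes were depended on the scaling, because both the summed value and the share of protein-coding genes in it differed between the groups. The deposited values summed to 603599 to 713384 in untreated samples and to 404675 to 465904 in LPS samples. A scaling to the same total sum was not tried. When each sample was rescaled to the same protein-coding sum, the median change of the 9403 genes with a mean of at least 1 went from 0.13 to -0.22 on the log2 scale, and 221 genes were called higher and 516 lower in place of 389 and 301. All 10 genes kept a positive log2 fold change, from 0.54 for *Gclc* to 3.06 for *Mgst1*. Of the 5 called genes, *Mgst1* and *Txnrd1* (2.03) were still past the limits, whereas *Nfe2l2* was at 1.97, *Slc7a11* at 1.81 and *Txn1* at 1.62.

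**Figure D3:**
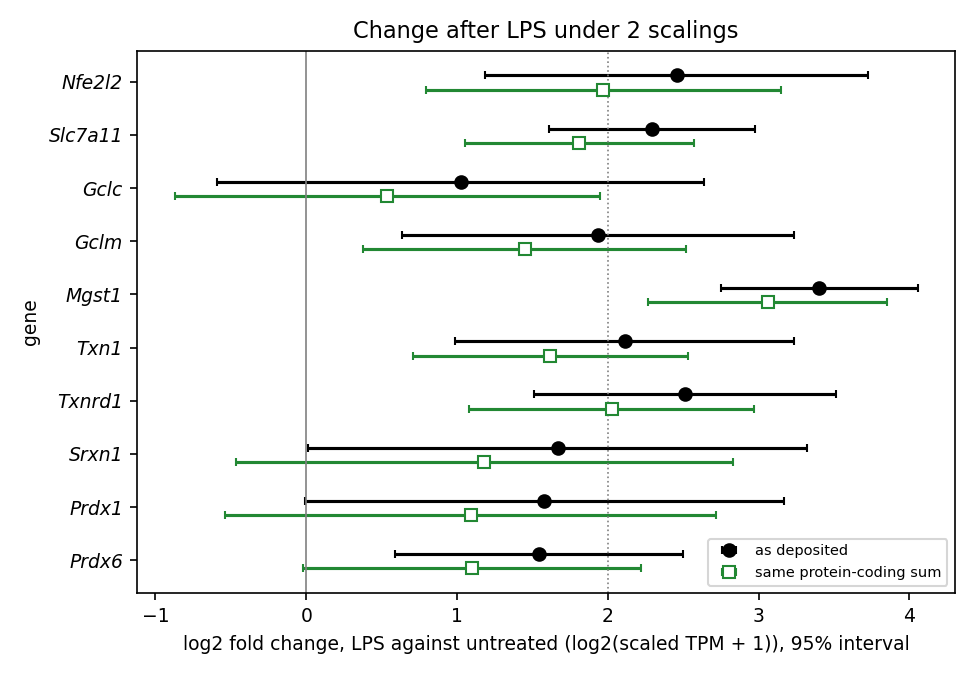
Log2 fold change with its 95% interval for each gene, as deposited (black) and after rescaling to the same protein-coding sum (green), with the limit of 2 as a dotted line. Each gene had a smaller log2 fold change after rescaling, and *Mgst1* stayed the farthest from 0.

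To place these genes among others of the same pathways, 6 related lists were examined. Their counts at an unadjusted p under 0.05 are to be read against the 10.3% of all genes that were higher and the 6.66% that were lower at that limit. Calls are to be read against the 1.69% of all genes called higher and the 1.31% called lower. Among the 6004 protein-coding genes with a mean of at least 1, 20.5% were higher at an unadjusted p under 0.05 with limma and 4.91% were called higher. In the other direction, 457 of these 6004 were lower at that limit and 45 were called lower. Of the regulators and partners of NRF2, 9 of 15 genes were in the table, 2 were called higher and 0 lower (1 was lower at an unadjusted p under 0.05 with limma), with a median log2 fold change of 0.30. *Keap1*, the gene of the NRF2 inhibitor, was at 0.856, 4.88 and 1.68 scaled TPM untreated and at 13.5, 18.6 and 16.0 after LPS, a rise with a log2 fold change of 2.45 ± 0.48 (SE; limma adjusted p = 0.068). *Mafg*, which encodes a small MAF partner, was at 17.2, 33.2 and 48.3 untreated and at 127, 151 and 129 after LPS, a rise with a log2 fold change of 2.12 (adjusted p = 0.069 with limma). Another partner gene, *Mafk*, had a log2 fold change of 1.42 (adjusted p = 0.29 with limma) with separate groups. The calls of *Keap1* and *Mafg* were lost without any one of the LPS samples, that of *Keap1* without the third and that of *Mafg* without the first untreated sample. With a pseudocount of 5 both calls were also lost (1.52 for *Keap1* and 1.98 for *Mafg*), and after rescaling to the same protein-coding sum that of *Mafg* (1.64). *Bach1*, a repressor of the same elements, and *Maff* were not analysed here.

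Among other target genes of NRF2, 13 of 22 were in the table, with a median of 0.65. At an unadjusted p under 0.05 with limma, 4 were higher and 0 lower. By the limits of the study 1 was called higher and 0 lower. This was *Hmox1*, the gene of heme oxygenase 1, which releases iron and biliverdin from heme. It was at 677, 1048 and 485 scaled TPM untreated and at 3588, 5047 and 2592 after LPS, a 5.08-fold rise and a log2 fold change of 2.36 ± 0.42 (SE; limma adjusted p = 0.054). Without the first untreated sample its call was narrowly lost (log2 fold change of 2.34, unadjusted p = 0.010 with limma). After rescaling to the same protein-coding sum the log2 fold change was 1.87 and no longer called. *Nqo1*, which encodes a quinone reductase, was at 100.1, 151 and 204 untreated and at 302, 473 and 299.8 after LPS. Its groups were separate, and its log2 fold change of 1.26 (adjusted p = 0.16 with limma) was under the limit. *Ftl1*, the ferritin light chain, was 8189.9 ± 2538 untreated and 8842 ± 2874 after LPS (SD, n = 3), with overlapping groups.

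Of the other glutathione genes, 25 of 33 were in the table, with a median of 0.29. The log2 fold change was positive in 21 and negative in 4, against 12200 positive of all 23049 genes tested. All of the negative ones but *Gpx1* had means under 1 scaled TPM in both groups, as did several of the positive ones. At an unadjusted p under 0.05 with limma, 6 were higher and 1 was lower. By the limits of the study 0 were called higher and 1 was called lower. The lower one was *Gpx1*, the gene of a selenium-containing glutathione peroxidase. It was at 86.8, 123 and 80.0 scaled TPM untreated and at 10.1, 16.8 and 12.2 after LPS, and its log2 fold change was -2.80 ± 0.33 (SE; limma adjusted p = 0.022), called under all 17 alternative settings. *Gsr*, the glutathione reductase gene, was 247 ± 146 untreated and 318 ± 50.9 after LPS (SD, n = 3), with overlapping groups. *Gss*, the gene of glutathione synthetase, had a log2 fold change of 1.33 (95% interval -0.56 to 3.21, adjusted p = 0.44 with limma). *Mgst2*, a relative of *Mgst1*, was 1.22 ± 0.0954 untreated and 4.98 ± 1.63 after LPS (SD, n = 3; adjusted p = 0.092 with limma). *Gsr*, *Gss* and *Mgst2* were named after their values were seen, as were *Ftl1*, *Txnrd3*, *Txnip* and *Phgdh*.

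Of the other thioredoxin and peroxiredoxin genes, 14 of 23 were in the table, and 0 were called in either direction (2 higher and 0 lower at an unadjusted p under 0.05 with limma), with a median of 0.61. *Txnrd3*, a relative of *Txnrd1*, was listed at 0, 0 and 0.0640 untreated and at 3.20, 1.48 and 3.56 after LPS. Its log2 fold change of 1.83 (adjusted p = 0.064 with limma) was under the limit, and with values this low the added 1 makes it too small. *Txnip*, the gene of the thioredoxin-binding inhibitor, was 50.6 ± 8.13 untreated and 64.4 ± 32.4 after LPS (SD, n = 3), with overlapping groups. For the amino acid response genes of ATF4, whose element occurs in the *Slc7a11* promoter, 8 of 10 were in the table. With limma 0 were called in either direction (4 higher and 0 lower at an unadjusted p under 0.05), and the median was 1.11. Its member *Phgdh*, an enzyme gene of serine synthesis, was at 10.5, 0.544 and 6.35 untreated and at 36.5, 12.6 and 34.9 after LPS. Of superoxide dismutases and catalase, 2 of 4 genes were in the table, *Cat* and *Sod3*, and 0 were called (0 at an unadjusted p under 0.05 with limma). *Cat* was 24.0 ± 5.37 untreated and 40.2 ± 19.4 after LPS (SD, n = 3), with overlapping groups. *Sod3* was listed at 0, 0 and 0.419 untreated and at 0.0891, 0.275 and 0.186 after LPS. *Sod1* and *Sod2* were not analysed here.

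**Figure D4:**
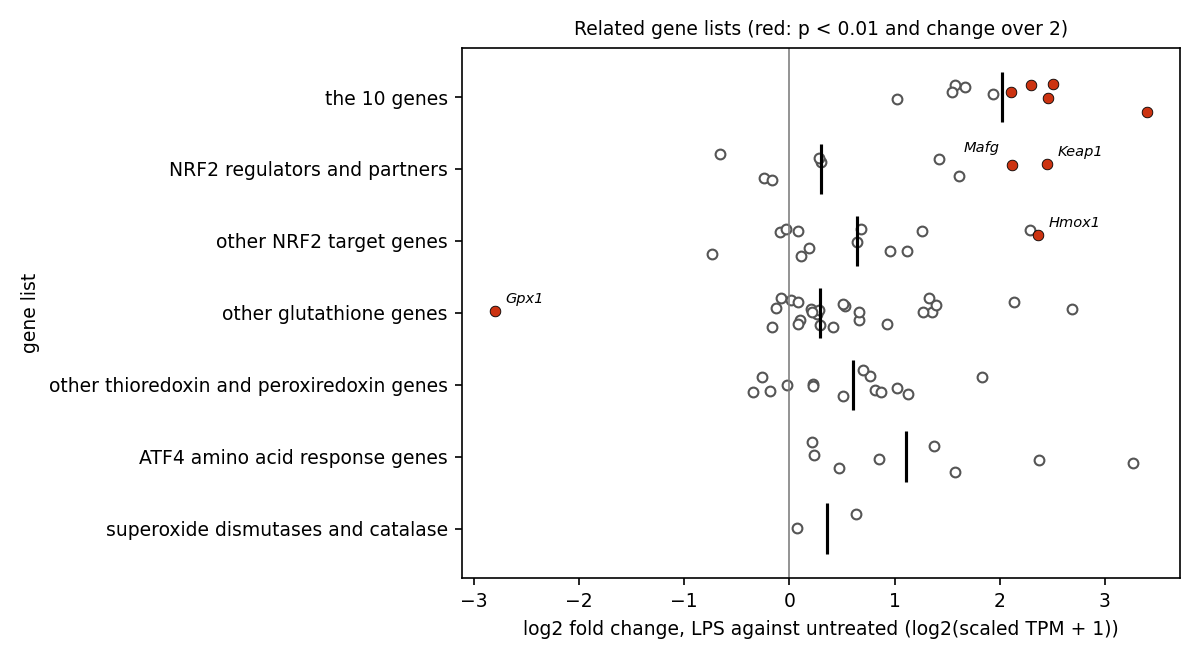
Log2 fold change of each tested gene in the 10 genes and 6 related lists, with the median of each list as a black line and genes past the limits of the study in red. The median of the 10 genes, 2.02, lies to the right of those of the related lists, and *Gpx1* at -2.80 is the red point on the left.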

How the data were processed

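The authors trimmed reads with fastp and aligned them with STAR to GRCm39 (the labels also name mm10), used kallisto to quantify transcripts and edgeR to normalize. Tool versions and the annotation release are not given in the sources used here. The deposited values, called normalized counts, were taken as TPM scaled by 1 factor per sample. In the third untreated sample 51.3% of values above 0 had at most 6 digits, as kallisto writes TPM, against 5.88 to 6.43% in the others. Depth is therefore unknown and count tests were not run.

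Of 38739 genes, 15690 had no value above 0 and were not tested. The 23049 remaining were fitted together with limma 3.58.1 in R 4.3.3 (lmFit, eBayes with a trend, two-sided) on log2(scaled TPM + 1), 3 LPS against 3 untreated samples. Benjamini-Hochberg adjustment ran over all genes. Other pseudocounts, a filter on low means, other scalings, a fit without a trend, a replicate block, added look-alike genes and leaving out each sample were tried. Symbols were matched to GENCODE M39 for gene identifiers, positions and types (36582 of 38739). The fit was tested on simulated data. Shared stretches were found with blastn 2.17.0 among GENCODE M39 transcripts, with a minimum of 95% identity and 150 bases. Genes named besides the 10 are *Keap1*, *Mafg*, *Mafk*, *Hmox1* and *Nqo1*, up to 3 called genes per related list and direction, and up to 3 genes per shared stretch. *Cat* and *Sod3* are named as the genes of their list in the table. Any others are marked in the report as picked from their values. Genes and lists, and the motifs, were chosen with earlier results of these data known. Of the marker lists, those not described in the report gave summed scaled TPM, untreated and then LPS, of 142 to 542 and 66.7 to 236 (B cell), 6.51 to 9.56 and 2.18 to 6.53 (T or NK cell), 4.69 to 40.8 and 5.05 to 49.1 (mast cell), 0.610 to 1.90 and 0.718 to 1.32 (eosinophil, *Epx* at 0 throughout), 0.0422 to 0.553 and 0.239 to 0.603 (mesothelial cell), and 18.0 to 1716 and 94.8 to 2573 (erythroid cell or platelet).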

Additional observations from a re-analysis of the deposited data

How the results depend on the processing

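With 3 samples a group and no read counts, precision rests on the spread between samples. Against 5 genes called higher, 2 were called after rescaling to the same protein-coding sum, 3 with near-identical stretches added, and 3 to 6 with 1 sample left out. At an adjusted p under 0.05, against 3, the counts were 1 after rescaling, 5 among genes with a mean of at least 1, and 0 to 3 with 1 sample left out (0 without the first or the third LPS sample, 1 without the second LPS or the third untreated sample). Over all genes, 206 of 23049 were higher at that limit in the main fit. This background was 120 after rescaling, 557 of 9403 among genes with a mean of at least 1, and 1 to 230 with 1 sample left out. The related genes called higher, 3 with all samples, were 6 with a pseudocount of 0.1, 1 with a pseudocount of 5 (*Keap1* and *Mafg* lost), 1 after rescaling (*Mafg* and *Hmox1* lost), and 1 to 5 with 1 sample left out (1 without the first or the third LPS sample and 5 without the second untreated one). With near-identical stretches added, the log2 fold change turned to -0.29 for *Prdx6*, -0.51 for *Gclm* and -0.57 for *Slc7a11*, because genes with larger values that were lower after LPS were added. With copies of at least 50% of a coding transcript alone, none of the 10 turned and *Gclm* was at 0.83. Like the test of protein-coding genes alone, this was tried after seeing the data. No other setting turned the direction of any of the 10 genes, *Keap1*, *Mafg*, *Mafk*, *Hmox1*, *Nqo1* or *Gpx1*.

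Samples share only a number across groups: deviations from the means of the groups correlated at 0.0935, 0.199 and 0.0835 for the same number, and each sample correlated best with its own number, a hint from the data and not the design. With the replicate number as a block, 5 related genes were called higher in place of 3, and 0 of the 10 genes had an adjusted p under 0.05 in place of 3. Over all genes the block left 1 higher and 15 lower at that limit, against 206 and 218. Of all genes, 389 were called higher and 301 lower. These counts were 856 and 493 with a pseudocount of 0.1, 129 and 168 with one of 5, 300 and 45 among protein-coding genes alone, and 238 to 434 and 241 to 375 with 1 sample left out. At the adjusted limit, 1 gene was higher and 7 lower without the first or without the third LPS sample.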
